A study of Mus musculus with 15 samples.

Results

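The sterol-sensing machinery around SREBP2 was followed through 7 genes in cultured BV2 cells, with and without Trem2 and with and without a cholesterol load. The members were taken by gene symbol: Srebf2, Scap, Insig1, Insig2, Mbtps1, Mbtps2 and Stard4. They are 7 of the 54390 genes in the count tables, and all 7 were among the 14237 genes that passed the filter on low counts. BV2 is an immortalized mouse microglial line used here as a macrophage model. Wild-type (WT) BV2 cells and Trem2-/- BV2 cells were kept overnight in medium alone (non-foamy) or in medium with soluble cholesterol at 20 micrograms per ml (foamy), and bulk RNA was sequenced. WT cells gave 4 libraries in each medium, and Trem2-/- cells gave 3 without and 4 with cholesterol. The Trem2-/- cells were made by transfecting a guide RNA into Cas9-expressing BV2 cells, and knockout cells were expanded from single cells after limiting dilution, so genotype cannot be told apart from a difference between clones. The sources used here do not say whether the WT libraries came from the same Cas9 line.

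SREBP2, encoded by Srebf2, is a transcription factor made as a precursor in the membrane of the endoplasmic reticulum (ER), where it is bound to the escort protein SCAP. When ER cholesterol is plentiful, INSIG proteins hold the SCAP-SREBP2 complex in the ER. When it is scarce, the complex moves to the Golgi in COPII vesicles, site-1 protease (Mbtps1) and site-2 protease (Mbtps2) cut the precursor, and the released domain switches on genes of cholesterol synthesis and uptake. Insig1, Srebf2 itself and Stard4, a sterol-carrying protein with a START domain, are known targets of SREBP2, whereas Insig2 is known for sterol-independent regulation in many cells.

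Promoter windows were available for 6 of the 7 members, Stard4 being the exception, as 250 bases before to 50 bases after each RefSeq start in GRCm38.p6. The stretches before the annotated gene starts of Insig1 and Srebf2 are shown because both genes are SREBP2 targets. Insig1 was called in 3 of the 5 comparisons and Srebf2 in 1. Capitals mark letters of 4 motifs on either strand: the sterol response element core ATCACCCCA, the E-box CACGTG, the NF-Y box CCAAT and the Sp1 box GGGCGG.
Insig1, chr5:28071162-28071362, plus strand: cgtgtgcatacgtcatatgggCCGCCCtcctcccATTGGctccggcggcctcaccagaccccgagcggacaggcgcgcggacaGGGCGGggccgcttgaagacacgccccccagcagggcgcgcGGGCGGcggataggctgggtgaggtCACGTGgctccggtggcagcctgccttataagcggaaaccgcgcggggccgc
Srebf2, chr15:82147019-82147180, plus strand: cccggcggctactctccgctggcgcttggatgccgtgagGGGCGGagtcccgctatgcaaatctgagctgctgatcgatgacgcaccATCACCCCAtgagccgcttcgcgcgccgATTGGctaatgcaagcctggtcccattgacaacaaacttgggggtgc
The Srebf2 stretch holds ATCACCCCA, which occurred in 0.28% of 32851 promoter windows of 250 bases before to 50 after a start and was added to the search after the Srebf2 sequence had been seen. The Insig1 stretch holds CACGTG, found in 7.15% of the windows. Both hold an NF-Y box (37.4% of windows) and at least 1 Sp1 box (35.7% of windows). The sterol response element TCACNCCAC (1.24% of windows), which overlaps the core above wherever a C follows it, was found in no member's window. Among 20 cholesterol synthesis and other SREBP2 target genes with a window, 18 held the NF-Y box, 16 the Sp1 box, 4 the E-box, 1, Hmgcs1, the sterol response element TCACNCCAC, and none the ATCACCCCA of the Srebf2 stretch. A gene was counted if any of its windows held the letters, whereas the percentages are shares of single windows, so these are unlike measures. A match of letters is not a binding site, and an absent match concerns these letters in this window alone.

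Libraries held 23538963 to 41683825 counts assigned to genes, and the median library held 32497248 in WT cells without and 35738254.5 with cholesterol, and 31337640 and 32179596 in Trem2-/- cells. Levels are given as CPM, a gene's count as a share of its library's total, scaled between libraries by trimmed mean of M values (TMM), and comparisons between genes as RPKM, which is CPM divided by the exonic length in kilobases. These are shares of each library's reads, so fewer cells expressing a gene and less RNA per cell cannot be told apart. The labels do not say that replicates came from separate cultures, and p-values then measure only the spread between these libraries. Differences are log2 fold changes from edgeR's quasi-likelihood test with Benjamini-Hochberg adjustment over the 14237 tested genes, and a gene was called at an adjusted p under 0.05.

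The Trem2 transcript, which checks the genotype labels, was at 354 ± 41.2 CPM (s.d., n = 4) in WT non-foamy and 373 ± 26.4 CPM (n = 4) in WT foamy cells. It was at 222 ± 8.79 CPM (n = 3) in Trem2-/- non-foamy and 224 ± 4.56 CPM (n = 4) in Trem2-/- foamy cells. All Trem2-/- libraries were below all WT libraries, with log2 fold changes of -0.67 (adjusted p = 2.85e-07) without and -0.73 (adjusted p = 7.09e-08) with cholesterol. The transcript was thus lower but still present, and the count does not report on the protein. The paper reports that loss of the Trem2 protein in its BV2 knockout cells was checked by flow cytometry.

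The cell type label was checked on marker genes. All 11 microglia and macrophage markers were tested, and their summed level was 3720 ± 350 CPM in WT non-foamy, 4050 ± 206 in WT foamy, 5270 ± 111 in Trem2-/- non-foamy and 5280 ± 112 in Trem2-/- foamy cells, with Tyrobp the most abundant. Of these 11 markers, 7 were called higher and 2 lower in Trem2-/- cells in both media, where 21.0% of tested genes were called higher and 22.6% lower without cholesterol, and 14.3% and 15.9% with it, so the count of 2 is near the background. The lower pair, Cx3cr1 (1.54 CPM in WT non-foamy, 0.300 in Trem2-/- non-foamy) and P2ry12 (1.74 and 0.598), are markers of resting microglia, and with Tmem119 (0.374 and 0.386 CPM) they were near 0 in this line. The 4 fibroblast markers were at 0 in every library, the neuron markers summed to at most 0.190 CPM, the astrocyte markers to at most 0.631 CPM with Slc1a2 the most abundant and Aqp4 and Aldh1l1 at 0, and the oligodendrocyte markers to at most 2.57 CPM, with Mog at 0. The part of the marker differences in the results below was not tested.

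The SREBP2 precursor gene Srebf2 (ENSMUSG00000022463, chr15:82147181-82205379, GRCm38, plus strand) was highest in WT non-foamy cells. Its 4 libraries there held 91.4, 107, 88.9 and 111 CPM, and the WT foamy libraries 86.6, 80.7, 74.0 and 85.7 CPM. The Trem2-/- non-foamy libraries held 54.1, 54.8 and 72.0 CPM, and the Trem2-/- foamy libraries 65.7, 77.2, 74.0 and 52.4 CPM. Every WT non-foamy library lay above every library of the other groups, while the WT foamy and Trem2-/- foamy groups overlapped, as did both Trem2-/- groups. Means were 99.5 ± 11.0, 81.8 ± 5.77, 60.3 ± 10.1 and 67.3 ± 11.1 CPM in that order of groups. Mir33, a miRNA gene inside an intron of Srebf2 (chr15:82198122-82198190), had no counts in any of the 15 libraries. Its 69-base transcript may not be captured by a standard RNA library, and 0 counts allow up to 0.127 CPM in the shallowest library (3 counts, counting error only).

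Scap, the sterol-sensing escort of SREBP2 (ENSMUSG00000032485, chr9:110333288-110384950, plus strand), was the least abundant member. Its libraries held 8.77, 8.31, 6.91 and 11.0 CPM in WT non-foamy cells and 9.61, 9.07, 6.42 and 8.59 CPM in WT foamy cells. In Trem2-/- cells they held 4.73, 6.50 and 7.65 CPM without cholesterol and 5.23, 7.85, 4.68 and 5.16 CPM with it. Most Trem2-/- libraries were below most WT libraries, but every pair of groups overlapped. Of its exonic bases, 985 (13.2%) overlap 5830462I19Rik on the opposite strand, a gene that had between 0 and 8 counts in a library.

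Insig1, the ER retention protein that is itself induced by SREBP2 (ENSMUSG00000045294, chr5:28071363-28078662, plus strand), separated all 4 groups. Its WT non-foamy libraries held 72.9, 77.4, 79.7 and 71.8 CPM, and the WT foamy libraries 52.3, 55.1, 52.1 and 55.7 CPM. The Trem2-/- non-foamy libraries held 42.1, 40.1 and 45.5 CPM, and the Trem2-/- foamy libraries 48.0, 50.8, 48.4 and 51.5 CPM. The order of the levels was WT non-foamy, WT foamy, Trem2-/- foamy and Trem2-/- non-foamy, with no overlap between neighbours. Group means were 75.5 ± 3.74, 53.8 ± 1.84, 49.6 ± 1.74 and 42.6 ± 2.71 CPM in that order.

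Insig2, the paralog of Insig1 (ENSMUSG00000003721, chr1:121304353-121332589, minus strand), ran in the opposite order. It was at 49.4 ± 2.35 CPM in WT non-foamy cells (47.8, 48.1, 52.9 and 48.6) and 55.0 ± 4.03 CPM in WT foamy cells (49.7, 58.7, 57.5 and 54.0). It was at 60.6 ± 1.06 CPM in Trem2-/- non-foamy cells (61.2, 61.3 and 59.4) and 58.6 ± 3.92 CPM in Trem2-/- foamy cells (56.3, 55.0, 59.5 and 63.8). Each group overlapped its neighbour in the order, while both WT groups lay below all Trem2-/- non-foamy libraries.

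The proteases that cut SREBP2 ran in opposite orders over the genotypes. Mbtps1, site-1 protease, which makes the first cut (ENSMUSG00000031835, chr8:119508156-119558735, minus strand), held 101, 107, 85.8 and 101 CPM in WT non-foamy and 104, 99.6, 89.7 and 96.8 CPM in WT foamy libraries. It held 85.5, 77.3 and 91.7 CPM in Trem2-/- non-foamy and 83.6, 93.3, 92.2 and 75.7 CPM in Trem2-/- foamy libraries, with overlap between all groups. Mbtps2, site-2 protease, which makes the second cut within the membrane (ENSMUSG00000046873, chrX:157535371-157598715, minus strand), held 58.2, 54.5, 59.1 and 57.3 CPM in WT non-foamy and 58.6, 59.7, 62.7 and 62.0 CPM in WT foamy libraries. It held 69.8, 72.7 and 65.1 CPM in Trem2-/- non-foamy and 72.7, 61.8, 65.8 and 74.8 CPM in Trem2-/- foamy libraries. All Trem2-/- non-foamy libraries were above all WT libraries, whereas the foamy groups overlapped between 61.8 and 62.7 CPM. Of the exonic bases of Mbtps2, 2867 (28.4%) are shared on the same strand with Yy2, whose counts are not analysed here, so its count is uncertain by the reads that the authors' counting could assign to either gene.

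Stard4, the sterol carrier (ENSMUSG00000024378, chr18:33199355-33213862, minus strand), followed the order of Insig1. Its libraries held 78.2, 80.3, 79.1 and 81.9 CPM in WT non-foamy and 55.5, 53.7, 58.9 and 56.6 CPM in WT foamy cells. They held 41.6, 46.0 and 39.3 CPM in Trem2-/- non-foamy and 52.7, 49.5, 49.7 and 51.6 CPM in Trem2-/- foamy cells. No neighbours in the order overlapped. Means were 79.9 ± 1.61 and 56.2 ± 2.17 CPM in WT cells and 42.3 ± 3.44 and 50.9 ± 1.55 CPM in Trem2-/- cells, without and with cholesterol respectively.

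**Figure D1:**
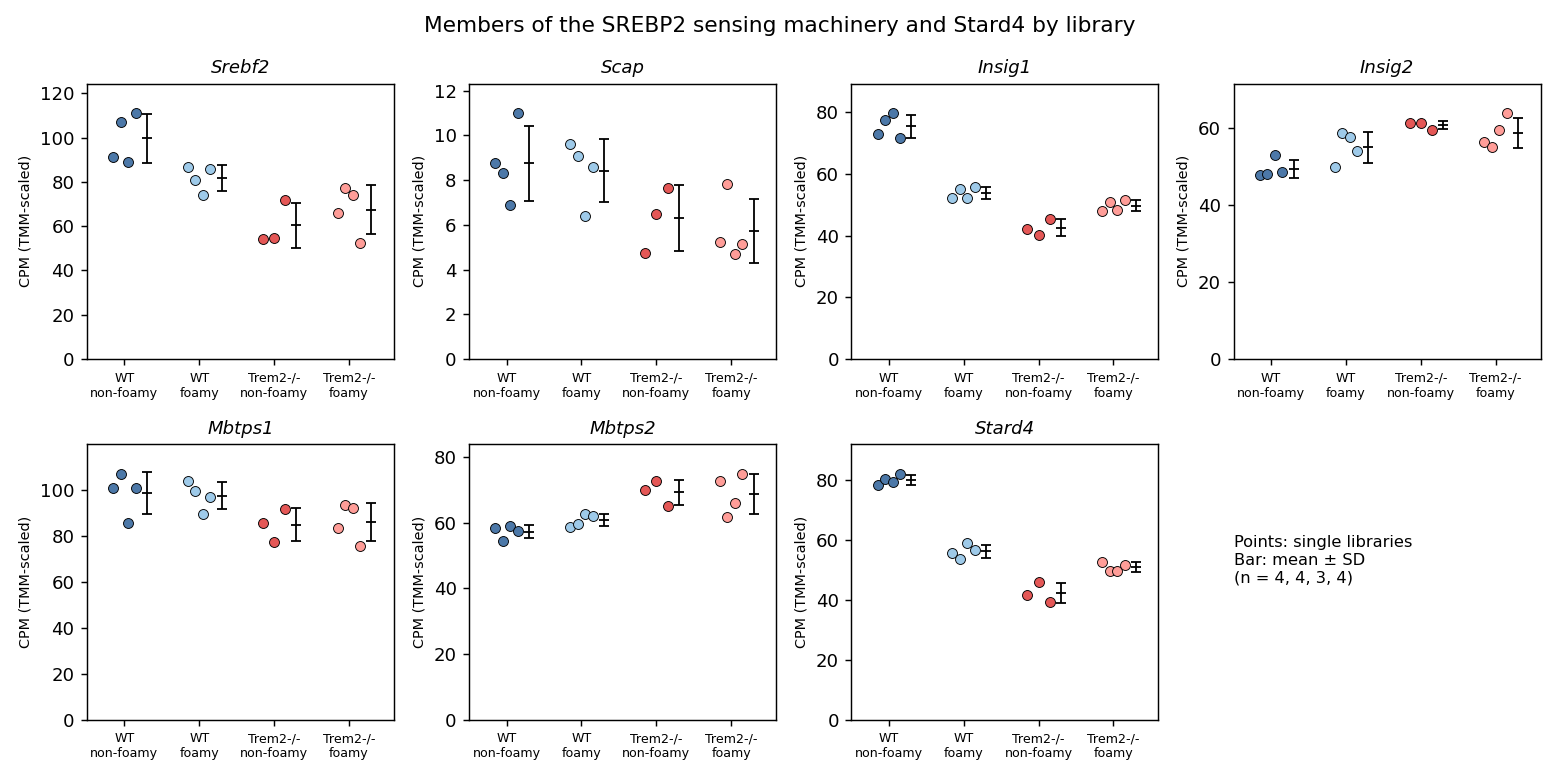
CPM (TMM-scaled, linear axes from 0) of the 7 members in each library, by group, with the mean ± s.d. beside the points (n = 4, 4, 3 and 4). Insig1 and Stard4 fall from WT non-foamy to WT foamy cells and lie lowest in Trem2-/- non-foamy cells, without overlap between groups, while the other members overlap between at least 1 pair of groups.

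Scaled by exon length, levels of different members could be set side by side. In WT non-foamy cells Insig1 was the highest at 24.4 ± 1.21 RPKM, followed by Stard4 (14.3), Insig2 (14.2), Srebf2 (13.8), Mbtps1 (9.36), Mbtps2 (5.67) and Scap (1.18). The levels of Stard4, Insig2 and Srebf2 in these cells did not differ beyond their spread (s.d. 0.288, 0.678 and 1.53 RPKM). In Trem2-/- non-foamy cells Insig2 led with 17.5 RPKM, followed by Insig1 (13.8), Srebf2 (8.39), Mbtps1 (8.05), Stard4 (7.57), Mbtps2 (6.85) and Scap (0.845). On the longest transcript that order was Insig2 (22.5), Insig1 (15.8), Mbtps2 (14.4), Mbtps1 (12.5), Srebf2 (11.9), Stard4 (8.30) and Scap (1.49), so the middle of the order depended on the length used. Scap was therefore the scarcest transcript in every group, with Srebf2 at 10.4 to 13.3 times its level in WT non-foamy and 8.74 to 11.8 times in Trem2-/- non-foamy libraries. In foamy libraries Srebf2 was at 9.22 to 11.9 times the level of Scap in WT and 10.2 to 16.4 times in Trem2-/- cells.

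The balance between the paralogous retention factors separated most of the groups. Insig1 was at 1.72 ± 0.0628 times the RPKM of Insig2 in WT non-foamy cells (1.66 to 1.81), 1.10 ± 0.0792 times in WT foamy cells (1.02 to 1.18), 0.789 ± 0.0638 times in Trem2-/- non-foamy cells (0.734 to 0.859) and 0.953 ± 0.0601 times in Trem2-/- foamy cells (0.906 to 1.04). The WT foamy and Trem2-/- foamy ranges overlapped narrowly, and no others did. Measured on the longest transcript instead of all exons, the ratios were 1.53, 0.982, 0.702 and 0.849, so whether Insig1 exceeded Insig2 in WT foamy cells depended on the length used. The sum of both was 38.6 ± 1.76 RPKM in WT non-foamy cells, 33.2 ± 1.45 in WT foamy, 31.2 ± 0.596 in Trem2-/- non-foamy and 32.9 ± 1.45 in Trem2-/- foamy cells. The Mbtps1 to Mbtps2 ratio was 1.66 ± 0.204 and 1.54 ± 0.140 in WT and 1.18 ± 0.166 and 1.22 ± 0.219 in Trem2-/- cells, non-foamy and foamy respectively. On the longest transcript Mbtps1 was still above Mbtps2 in WT cells (14.5 against 11.9 and 14.4 against 12.7 RPKM) but below it in Trem2-/- cells (12.5 against 14.4 and 12.7 against 14.3 RPKM), so which protease was higher depended on the length used. These ratios are descriptions and were not tested.

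**Figure D2:**
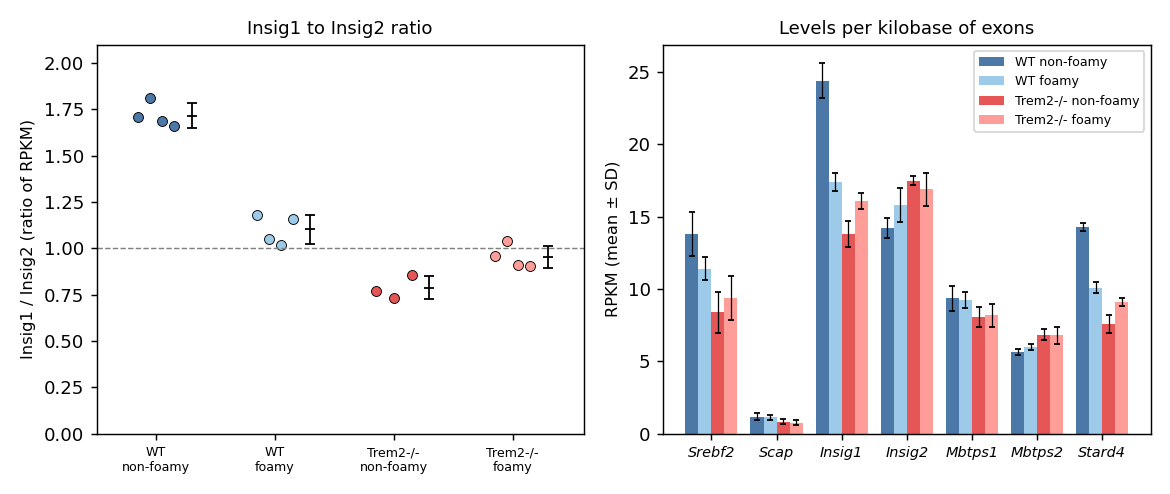
Left, ratio of Insig1 to Insig2 RPKM in each library with mean ± s.d. (n = 4, 4, 3 and 4) and a dashed line at 1; right, mean ± s.d. RPKM of the 7 members in the 4 groups, on an axis from 0. The ratio is highest in WT non-foamy cells (1.66 to 1.81) and lowest in Trem2-/- non-foamy cells (0.734 to 0.859), and Scap is the lowest member in each group.

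Cholesterol loading of WT cells lowered 2 members, Insig1 and Stard4. Insig1 fell 1.40-fold (log2 fold change -0.49, SE 0.06, 95% interval -0.61 to -0.37, adjusted p = 4.39e-05). Stard4 fell 1.42-fold (log2 fold change -0.51, SE 0.06, 95% interval -0.63 to -0.39, adjusted p = 2.80e-05). They ranked 9 and 6 by p-value among all tested genes, of which 2.80% were called and 1.14% were called lower. Srebf2 had a log2 fold change of -0.28 (95% interval -0.50 to -0.06, adjusted p = 0.158), with all foamy libraries below all non-foamy ones. It was called in 2 of 16 alternatives, with no filter on low counts (-0.28, adjusted p = 0.00809) and with GC and length trends removed (-0.33, 0.00157). The groups were free of overlap for 3 of 7 members against 9.71% of all tested genes. Intervals of the remaining members were -0.42 to 0.29 for Scap, 0.02 to 0.29 for Insig2 (adjusted p = 0.214), -0.18 to 0.14 for Mbtps1 and -0.05 to 0.22 for Mbtps2. The median over the 7 members was -0.06, against 0.01 over all tested genes.

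In Trem2-/- cells no member was called on cholesterol loading, where 0.140% of tested genes were called (0.105% higher, 0.0351% lower). Stard4 had a log2 fold change of 0.27 (SE 0.06, 95% interval 0.13 to 0.40, adjusted p = 0.179) and Insig1 of 0.22 (SE 0.06, 95% interval 0.09 to 0.36, adjusted p = 0.392). For both, every foamy library lay above every non-foamy one, and groups were free of overlap in 9.26% of tested genes. At an unadjusted p under 0.05 there were 2 members and 918 genes (6.45%), and DESeq2 called 1 member, Stard4 (adjusted p = 0.0265),. Srebf2 was at 0.16 (95% interval -0.08 to 0.40), Scap at -0.13 (-0.53 to 0.28), Insig2 at -0.05 (-0.19 to 0.10), Mbtps1 at 0.02 (-0.15 to 0.20) and Mbtps2 at -0.01 (-0.15 to 0.13).

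The difference between the responses was tested directly, as the Trem2-/- response minus the WT response, and was called for Insig1 and Stard4. For Insig1 it was 0.71 on the log2 scale (SE 0.09, 95% interval 0.53 to 0.89, adjusted p = 3.31e-05). For Stard4 it was 0.77 (SE 0.09, 95% interval 0.59 to 0.95, adjusted p = 1.07e-05). Both were called higher among the 1.99% of tested genes called in that direction (3.64% in either direction, 1.64% lower). Srebf2 differed by 0.44 (SE 0.16, 95% interval 0.12 to 0.77, adjusted p = 0.12), which did not pass. It was called in 3 of 22 alternatives. These were no filter on low counts (0.44, adjusted p = 0.00381), GC and length trends removed (0.50, 0.00114) and leaving out Trem2-/- foamy replicate 4 (0.55, 0.0306). The differences for Scap (-0.07), Insig2 (-0.21), Mbtps1 (0.04) and Mbtps2 (-0.09) did not pass either. The calls of Insig1 and Stard4 held in all 22 alternative fits of this difference. Across comparisons DESeq2 called 7.81% (WT response), 0.379% (Trem2-/- response), 45.6% (genotypes without cholesterol), 32.9% (genotypes with cholesterol) and 8.24% (difference) of its genes, and 2, 1, 7, 3 and 2 of the 7 members.

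Without cholesterol, all 7 members were called between Trem2-/- and WT cells, in a comparison that called 43.6% of tested genes (22.6% lower, 21.0% higher). Stard4 was 1.89-fold lower in Trem2-/- cells (log2 fold change -0.92, SE 0.06, adjusted p = 1.80e-10), Insig1 1.77-fold lower (-0.83, SE 0.06, adjusted p = 9.22e-10) and Srebf2 lower by a log2 fold change of -0.72 (SE 0.12, adjusted p = 2.49e-05). Scap (-0.49, SE 0.19, adjusted p = 0.0416) and Mbtps1 (-0.22, SE 0.08, adjusted p = 0.0402) were lower with overlapping libraries. Insig2 was 1.23-fold higher (0.30, SE 0.07, adjusted p = 0.00125) and Mbtps2 was higher by 0.27 (SE 0.07, adjusted p = 0.00254). The groups were free of overlap for 5 of the 7, against 46.1% of tested genes, and the member median was -0.49, against 0.02.

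The Scap and Mbtps1 calls were near the threshold, and each was lost on leaving out any 1 of 5 libraries. The Scap call was lost without Trem2-/- non-foamy replicate 1 (-0.32, adjusted p = 0.243) or 2 (-0.52, 0.0776), or without WT non-foamy replicate 1 (-0.50, 0.0653), 2 (-0.52, 0.0514) or 4 (-0.36, 0.158). It was also lost with the replicate number as a block (-0.44, adjusted p = 0.0867). The Mbtps1 call was lost without the same 5 libraries, with log2 fold changes of -0.23, -0.16, -0.21, -0.18 and -0.21 (adjusted p = 0.086, 0.212, 0.0771, 0.121 and 0.0787). With library totals alone in place of TMM, the median of all genes between Trem2-/- and WT cells shifted to -0.13 in both media, and Mbtps2 was at 0.13 (adjusted p = 0.089), which is higher relative to that median but no longer called. Insig2 was at 0.16 and still called (adjusted p = 0.0366). Under that scaling 3.01% (WT response), 0.105% (Trem2-/- response), 43.5% (genotypes without cholesterol), 33.6% (with cholesterol) and 3.97% (difference) of tested genes were called, and 2, 0, 6, 5 and 2 of the members.

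With cholesterol, 2 members were called between Trem2-/- and WT cells, where 30.2% of tested genes were called. Scap was lower by a log2 fold change of -0.56 (SE 0.18, 95% interval -0.92 to -0.19, adjusted p = 0.0193), and Mbtps2 was higher by 0.18 (SE 0.06, 95% interval 0.05 to 0.31, adjusted p = 0.0373), both with overlapping libraries. The Mbtps2 call was lost with library totals alone (0.05, adjusted p = 0.553), with no filter on low counts (0.17, 0.106) and with only the groups compared (0.18, 0.0548). Srebf2 stood at the threshold (-0.28, SE 0.11, adjusted p = 0.0503) and was called in 10 of 16 alternatives, among them DESeq2 (adjusted p = 0.0417) and library totals alone (-0.41, 0.0247), with the smallest difference where GC and length trends were removed (-0.17, 0.0392). Insig1 (-0.12, 95% interval -0.24 to 0.01, adjusted p = 0.145) and Stard4 (-0.14, 95% interval -0.26 to -0.02, adjusted p = 0.0679) were not called, although their libraries did not overlap, as in 28.8% of tested genes. Mbtps1 was at -0.18 (adjusted p = 0.0914) and Insig2 at 0.09 (adjusted p = 0.298), the latter at -0.04 with library totals alone. Under that scaling Insig1 (-0.25, adjusted p = 0.00429) and Stard4 (-0.27, adjusted p = 0.00187) were called lower, as was Mbtps1 (-0.31, adjusted p = 0.0299), against the shifted median of -0.13, and Stard4 was also called with trends removed (-0.13, adjusted p = 0.0388). The comparison with cholesterol shares its WT foamy libraries with the WT response and its Trem2-/- foamy libraries with the Trem2-/- response.

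Calls in foamy cells were also lost or gained on leaving out 1 library. Scap was not called without Trem2-/- foamy replicate 1 (-0.51, adjusted p = 0.0597), 3 (-0.47, 0.0695) or 4 (-0.51, 0.0553), or without WT foamy replicate 1 (-0.49, 0.0549) or 2 (-0.52, 0.0536). Mbtps2 was not called without Trem2-/- foamy replicate 1 (0.15, adjusted p = 0.118) or 4 (0.14, 0.123), or without WT foamy replicate 1 (0.16, 0.084), 2 (0.17, 0.0842) or 4 (0.19, 0.0538). Among the fits with 1 library left out, Srebf2 was called without Trem2-/- foamy replicate 2 (-0.35, adjusted p = 0.0226) or 3 (-0.33, 0.0401), or without WT foamy replicate 3 (-0.33, 0.0334).

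**Figure D3:**
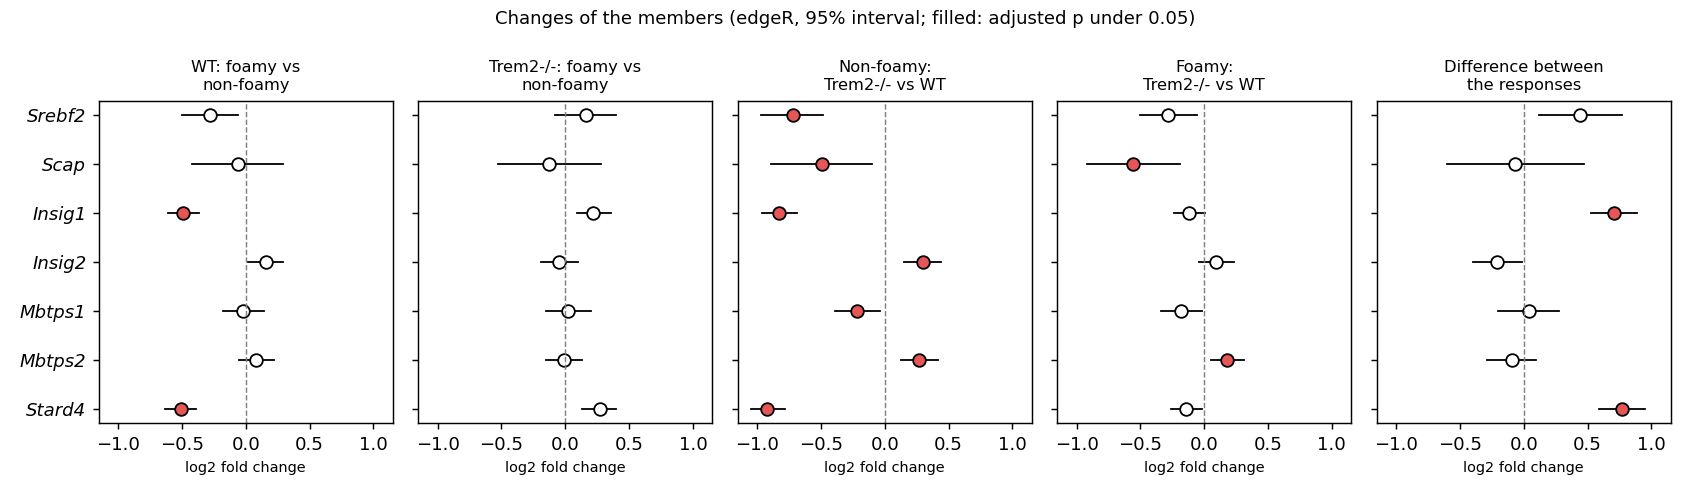
Log2 fold changes of the 7 members in the 5 comparisons, each point with its 95% interval, filled where the adjusted p was under 0.05 by edgeR. All 7 are filled for Trem2-/- against WT non-foamy cells, none for the Trem2-/- response, and Insig1 and Stard4 are filled in the WT response and in the difference between the responses.

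Part of the spread of Srebf2 and the proteases within groups followed a contrast between GC-rich and GC-poor genes in the libraries. For each library, the mean log2 level of GC-poor genes (44.6% GC or less) was subtracted from that of GC-rich genes (53.9% or more), each gene relative to its mean over the 15 libraries, with quartiles taken over 11693 genes outside the members. This contrast ran from -0.31 in Trem2-/- foamy replicate 4 to 0.18 in WT foamy replicate 1, with group means of 0.03 and 0.05 in WT cells and -0.05 in both Trem2-/- groups. Across the 15 libraries, deviations of the members and of the contrast from their group means correlated at r = 0.92 for Srebf2 (longest transcript 57.9% GC), 0.88 for Mbtps1 (50.2%), 0.52 for Scap (59.1%), 0.04 for Insig1 (48.2%), -0.52 for Stard4 (43.9%), -0.74 for Insig2 (46.0%) and -0.86 for Mbtps2 (40.0%). In all 4 groups the library lowest in the contrast was the lowest for Mbtps1 and the highest for Mbtps2. These correlations are descriptions, and the libraries share the depth and composition that enter both measures. A contrast of long minus short genes, taken in the same way, ran from -0.24 in WT non-foamy replicate 3 to 0.27 in WT foamy replicate 1. It ordered the libraries as Srebf2 did in WT non-foamy cells and in both Trem2-/- groups, but not in WT foamy cells. Both contrasts come from gene levels, and which of them the spread followed was not tested.

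A fit with each library's trend on GC content and length removed, added after the data had been seen, was run beside the first. It narrowed the error of Srebf2, whose WT response became -0.33 (SE 0.06, adjusted p = 0.00157) and whose difference between the responses became 0.50 (SE 0.09, adjusted p = 0.00114). In that fit Insig2 was called higher in the WT response (0.17, adjusted p = 0.0424) and Stard4 higher in the Trem2-/- response (0.27, adjusted p = 0.0151). It called 4 members in the WT response (7.84% of tested genes), 1 in the Trem2-/- response (0.309%), 7 between the genotypes without cholesterol (48.7%), 4 with cholesterol (35.9%) and 3 in the difference (8.86%). Insig1 and Stard4 kept their calls in the WT response and in the difference between the responses.

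**Figure D4:**
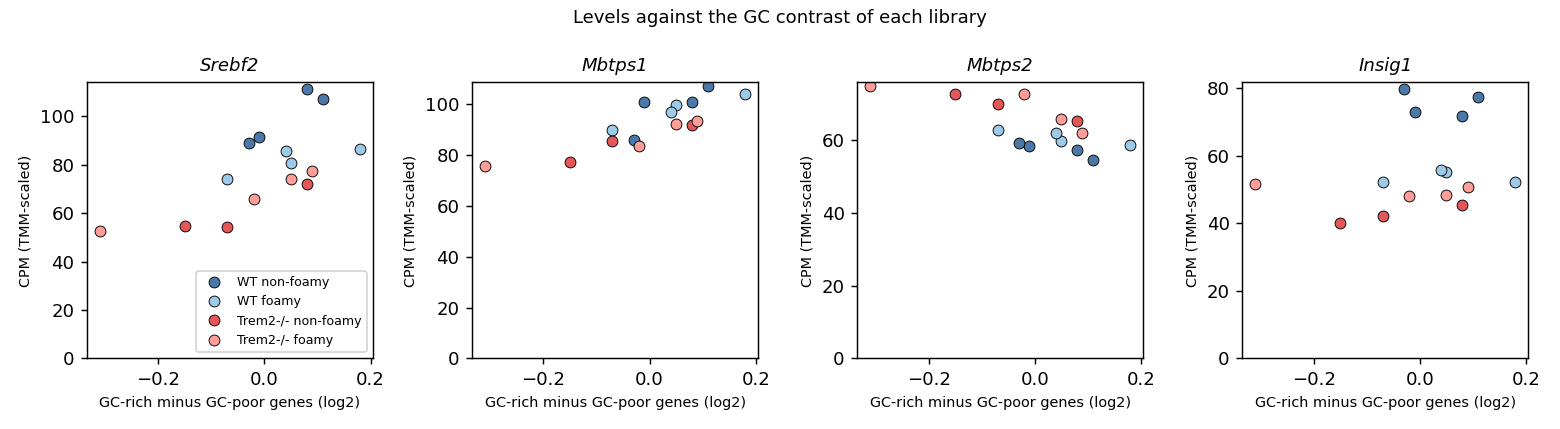
CPM of Srebf2, Mbtps1, Mbtps2 and Insig1 (vertical axes from 0) against the log2 level of GC-rich minus GC-poor genes in each of the 15 libraries, coloured by group. Within groups Srebf2 and Mbtps1 rise and Mbtps2 falls with the contrast (r of deviations 0.92, 0.88 and -0.86), while Insig1 does not follow it (0.04).

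The rest of the pathway was described from lists of known genes. Of 19 cholesterol synthesis enzymes 18 were tested. In the WT response 14 of the 18 were called lower and none higher, where 1.14% of tested genes were called lower and 1.66% higher. The list median log2 fold change was -0.60. The changes were led by Idi1, the isopentenyl diphosphate isomerase (-0.96, adjusted p = 9.95e-07), Msmo1 (-0.82), Fdft1, squalene synthase (-0.82), and Cyp51, lanosterol demethylase (-0.78). In the Trem2-/- response 6 were called higher and none lower (median 0.36), with Idi1 at 0.74, Msmo1 at 0.67, Fdps at 0.58 and Mvd at 0.55. Among all tested genes 0.105% were called higher and 0.0351% lower in that response. DESeq2 called 10 of the 18 higher, and leaving out 1 library gave 4 to 6. The difference between the responses was called for 14, all with a higher Trem2-/- than WT response (list median 0.97), the largest for Idi1 (1.70, adjusted p = 4.80e-08). For that difference 1.99% of tested genes were called higher. All 18 were called lower in Trem2-/- non-foamy than in WT non-foamy cells (log2 fold changes of -1.96, for Idi1, to -0.26), whereas in foamy cells 6 were lower, among them Acat2 (-0.53) and Lss (-0.50), and 1, Mvd, was called higher (0.26, adjusted p = 0.023). Over all tested genes 22.6% were called lower without cholesterol, and 15.9% lower and 14.3% higher with it, so 1 of 18 higher is below the background. With library totals alone 10 were called lower and none higher in foamy cells, and no enzyme was called higher without WT foamy replicate 3 or 4 or without Trem2-/- foamy replicate 2 or 3. Insig1 and Stard4 lay within the range of these enzymes in each comparison.

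Among 7 other SREBP2 targets, 5 were tested. Tmem97 (-0.41, adjusted p = 0.000438) and Rdh11 (-0.26, adjusted p = 0.0234) were called lower in the WT response, and none was called in the Trem2-/- response. Over all tested genes 1.14% were called lower in the WT response, and 0.140% were called in the Trem2-/- response. The count of 2 fell to 1 without WT foamy replicate 2 or 3, without WT non-foamy replicate 1 and with only the groups compared, and was 4 with trends removed. All 5 were called lower in Trem2-/- cells in both media, with Tmem97 at -0.91 (adjusted p = 4.29e-10) without and -0.25 (adjusted p = 0.00328) with cholesterol. Among all tested genes 22.6% were called lower without and 15.9% with cholesterol. The list median was -0.91 and -0.36 in these comparisons, against 0.02 and 0.00 over all tested genes.

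Genes that carry or escort the SCAP-SREBP2 complex gave no call on cholesterol loading. Of 12 tested COPII coat genes and partners of SCAP or site-1 protease, none was called in either response or in the difference between the responses, and Pgrmc1 had no counts. Over all tested genes 2.80% were called in the WT response, 0.140% in the Trem2-/- response and 3.64% in the difference. No call among 12 genes is thus near the background. In Trem2-/- cells 3 were called lower in both media: Sec13, a coat subunit (-0.73 without and -0.44 with cholesterol), Sec23b, a subunit of the inner coat (-0.48 and -0.34), and Sec31a (-0.24 and -0.22). Over all tested genes 22.6% were called lower without and 15.9% with cholesterol, so a count of 3 of 12 is near the background. With library totals alone 5 were called lower in each medium.

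Of 14 genes for ER degradation and turnover of the pathway's proteins, none was called in either response. This is near the background, since 2.80% of tested genes were called in the WT and 0.140% in the Trem2-/- response. In Trem2-/- against WT non-foamy cells 3 were called lower, among them Vcp, the segregase that extracts ER proteins (-0.37), and Ube2g2 (-0.29), and 2 higher, Marchf6 (0.35) and Ufd1 (0.22). These counts are at or below the shares over all tested genes (22.6% lower, 21.0% higher), and the higher pair was not called with library totals alone. With cholesterol 4 of the 14 were called lower, among them Vcp (-0.29), Ube2g2 (-0.25) and Nploc4 (-0.24), where 15.9% of tested genes were, and 1, Ufd1 (0.28), higher, where 14.3% were. The count of 4 lower fell to 2 without Trem2-/- foamy replicate 3 or WT foamy replicate 1. The count of 1 higher was 0 with library totals alone, 2 without WT foamy replicate 1 and 4 with trends removed. Without cholesterol, Rnf145, a ubiquitin ligase gene, was at 0.12 (adjusted p = 0.209).

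Other substrates of site-1 and site-2 protease were 9 genes, all tested. None was called in either response, where 2.80% (WT) and 0.140% (Trem2-/-) of tested genes were, so this is near the background. In Trem2-/- against WT non-foamy cells Atf6b, an ER stress factor (-0.71, adjusted p = 3.05e-06), Creb3 (-0.40) and Creb3l3 were called lower. Creb3l3 (at most 0.467 CPM in any library of these groups) held 0 to 2 counts in Trem2-/- and 0 to 18 in WT libraries, with overlap. Its log2 fold change of -3.48 is therefore not an exact size, and its call rests on counts near 0. Creb3l2 (0.99) and Gnptab (0.41) were called higher, but not with library totals alone. The count of 2 higher fell to 1 without Trem2-/- non-foamy replicate 1 or 2 and without WT non-foamy replicate 1 or 3, and over all tested genes 22.6% were called lower and 21.0% higher. With cholesterol, Srebf1, the gene of the SREBP1 paralog, was called lower in Trem2-/- cells (-0.64, adjusted p = 0.000101), as was Atf6b (-0.55). In that comparison 15.9% of tested genes were called lower.

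Of 14 other genes with START domains, 10 were tested. Col4a3bp, the ceramide transfer protein (0.35, adjusted p = 0.0128), and Stard9 (0.36, adjusted p = 0.0491) were called higher in the WT response, the opposite direction to Stard4. In that response 1.66% of tested genes were called higher. Neither gene was called with library totals alone, with only the groups compared or without WT foamy replicate 2. The count of 2 fell to 1 with the replicate block and on leaving out WT foamy replicate 1 or 3 or any 1 of the WT non-foamy libraries. The difference between the responses was called for Col4a3bp (-0.51, adjusted p = 0.0116), where 1.64% of tested genes were called lower. Without cholesterol, Col4a3bp (0.78), Stard9 (0.71), Stard3, a late endosomal sterol carrier (0.24), and Stard5 (0.23) were called higher and Stard7 (-0.31) lower in Trem2-/- cells. With library totals alone, or without Trem2-/- non-foamy replicate 1, 2 were called higher in that comparison, where 21.0% of tested genes were called higher and 22.6% lower. With cholesterol Col4a3bp (0.27) and Stard5 (0.27) were called higher and Stard7 (-0.19) lower, against 14.3% and 15.9% of tested genes. The 2 higher became 0 with library totals alone and 4 by DESeq2 and with trends removed, and Stard7 was not called with trends removed or without Trem2-/- foamy replicate 4 or WT foamy replicate 2.

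**Figure D5:**
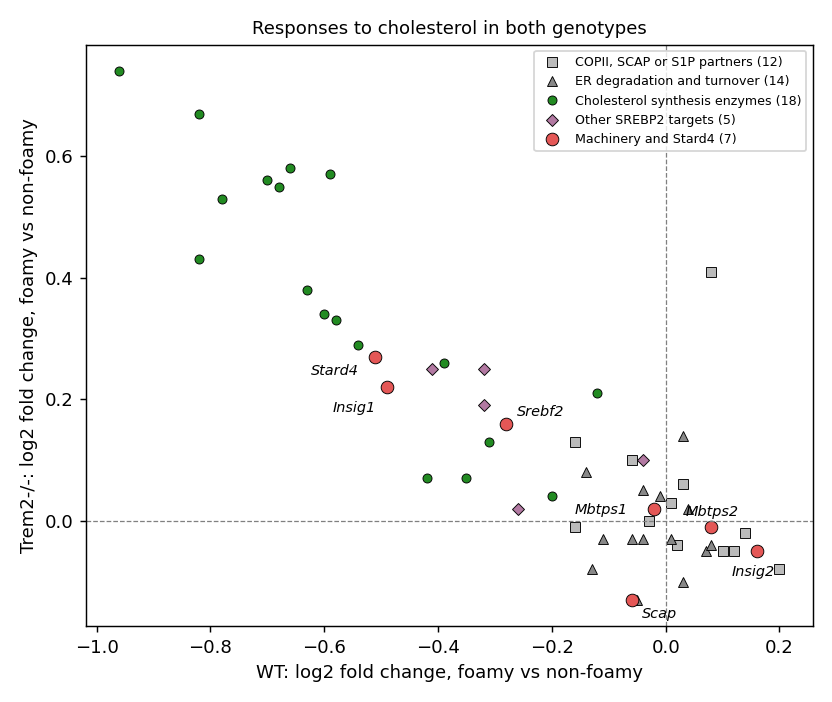
Log2 fold change of foamy against non-foamy cells in WT (horizontal) and Trem2-/- (vertical) cells for the 7 members and 4 of the gene lists, with the number of tested genes in the key. All 18 synthesis enzymes lie left of 0 and above 0, as do Stard4, Insig1 and Srebf2, while the proteases, Scap, Insig2, the COPII genes and the turnover genes gather within about 0.2 of 0 on both axes, apart from Paqr3 (0.41 in Trem2-/- cells, adjusted p = 0.909).

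The genes most like each member over the 15 libraries were sought by Pearson correlation of log2 CPM among the 8359 other genes that averaged 10 CPM or more. For Stard4 these were Idi1, Cyp51 and Msmo1 (r = 0.98 each), and for Insig1 they were Cyp51 (0.98), the decoy interleukin-1 receptor gene Il1r2 (0.97) and Idi1 (0.96). With group means removed, r fell to 0.39, 0.60 and 0.11 for the genes like Insig1. For those like Stard4 it fell to 0.50 (Idi1), 0.01 (Cyp51) and 0.44 (Msmo1). Insig1 and Stard4 themselves went from 0.95 to -0.61, so the likeness of these 2 members to each other lay in the group means. For Srebf2 the most like genes were Hnrnpm (0.98), Thop1 and Slc16a3 (0.97 each), and these held within groups (0.92, 0.92 and 0.91).

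For Mbtps1 they were Kpna6 (0.97), Traf7 (0.95) and Castor2 (0.94), for Mbtps2 Osbpl9, Crbn and Capn7 (0.96 each), for Scap Ubqln1 (0.94), Tysnd1 and Phlpp2 (0.92 each), and for Insig2 Cd200r1 (0.97), Anxa4 (0.95) and Il7r (0.94). Among members, Srebf2 and Mbtps2 ran against each other (r = -0.94, and -0.83 within groups), and Srebf2 and Mbtps1 together (0.86, and 0.84 within groups). These points share libraries, depth and the trends of each library on GC content and length.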

How the data were processed

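BV2 cells were lysed in TRIzol, and total RNA was prepared as TruSeq libraries and sequenced on a NovaSeq. According to the methods and labels, the authors ran the CHURP pipeline (Trimmomatic, HISAT2, SAMtools and featureCounts) against GRCm38 (Ensembl release 102), and the deposited values are raw counts per gene, 1 table per library. Strand and multi-mapping settings are not given in the sources used here. The authors tested with DESeq2. Here, counts were tested with edgeR 4.0.16 (R 4.3.3): TMM factors, filterByExpr with a minimum count of 10 (14237 genes holding 99.97% of counts), and a quasi-likelihood fit over all 15 libraries (common biological coefficient of variation 10.2%). SE is the absolute log2 fold change over the square root of F, and intervals are 95%. Tested on simulated data for the WT response (13963 genes), the fit called 92% of 100 genes changed by log2 1 and 67% of 100 changed by 0.5, and 7.02% of its calls were unchanged genes. These counts were drawn independently for each gene, with only the WT foamy group changed. They held no difference between genotypes otherwise and no library trends, so the shares may differ in the real data.

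Groups and replicate numbers came from the labels. Replicates of a group differed beyond counting noise in all 21 pairs (chi-square per gene 5.95 to 45.2). The highest values of 3 groups came with single libraries. Pairs with WT non-foamy replicate 3 gave 31.1 to 40.1, against 6.36 to 7.58 for the group's other pairs. Pairs with WT foamy replicate 1 gave 19.0 to 45.2, against 8.38 to 15.7. Pairs with Trem2-/- foamy replicate 4 gave 15.5 to 24.6, against 6.83 to 10.8. Positions, exon lengths and GC content came from GENCODE M21 (GRCm38), in which 99.5% of gene IDs were found; promoter windows came from RefSeq GRCm38.p6. Alternatives were DESeq2 1.42.0, other scaling, filters, groups or gene lengths, a replicate block, and leaving out each library. The members and gene lists were chosen with earlier results of these data known. Named were all members, Trem2, genes sharing exons with a member, Mir33, the 3 genes most like each member, and for each list its largest called changes and genes against the majority direction. Some genes of these lists are not reported here.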

Additional observations from a re-analysis of the deposited data

Results flagged for a closer look

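The Insig2 level of WT non-foamy replicate 3, 52.9 CPM, stood apart from the 3 other libraries of its group (47.8 to 48.6 CPM) by Dixon's test. It was the single case among 21 groups of 4 libraries examined over the 7 members, where chance gives about 1 in 20. WT non-foamy replicate 3 was also the shallowest library (23538963 counts) and differed most from its group. Its pairs gave a chi-square per gene of 31.1 to 40.1, against 6.36 to 7.58 among the others. Its Trem2 level was the highest of the group (415 CPM, the others 327 to 345 CPM). The part of these differences in its Insig2 level was not tested.

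The response of Insig1 to cholesterol differed between the genotypes by 0.71 on the log2 scale (Trem2-/- minus WT), and that of Stard4 by 0.77. Both differences passed the test of the difference itself (edgeR, adjusted p = 3.31e-05 and 1.07e-05).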

How the results depend on the processing

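Insig1 and Stard4 kept their calls in all 16 alternatives of the WT response, all 15 of Trem2-/- against WT non-foamy cells and all 22 of the difference between the responses, with differences of 0.67 to 0.76 and 0.72 to 0.84. Member counts moved as follows. The WT response had 4 members called with GC and length trends removed and 3 with no filter, against 2, and the Trem2-/- response 1 by DESeq2 and 1 with trends removed. Trem2-/- against WT foamy cells had 5 with library totals alone, 4 with trends removed and 0 to 3 when 1 library was left out: 0 without WT foamy replicate 1 or 2 or Trem2-/- foamy replicate 1 or 4, and 1 without WT foamy replicate 4. Leaving out 1 library gave 5 to 7 in non-foamy cells, 2 in the WT response, 0 in the Trem2-/- response and 2 to 3 in the difference.

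Genes called in the WT response (399) were 607 with no filter, 896 by DESeq2, 1116 with trends removed, 144 with only the groups compared and 146 to 526 when 1 library was left out. The lowest of these was without WT foamy replicate 2 (146), with 243 without WT foamy replicate 1, and 188 and 220 without WT non-foamy replicates 1 and 4. In the Trem2-/- response (20) they were 61, 54 and 44 under the first 3 of these settings, and 10 to 18 (10 and 12 without Trem2-/- non-foamy replicates 1 and 2, 13 and 11 without Trem2-/- foamy replicates 1 and 3). In the difference between the responses (518) they were 968 by DESeq2, 1262 with trends removed and 201 to 661, with 201, 227 and 273 without Trem2-/- non-foamy replicates 1, 2 and 3, 276 and 336 without Trem2-/- foamy replicates 1 and 3, 238 without WT foamy replicate 2 and 343 without WT non-foamy replicate 1. Left-out ranges were 5232 to 6380 in non-foamy and 3640 to 4192 in foamy cells. The causes were not tested. With totals alone, the share of calls that were higher went from 59.4% to 41.8% (WT response), 48.1% to 29.4% (non-foamy), 47.4% to 23.3% (foamy) and 54.8% to 70.3% (difference).

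Same-numbered libraries did not deviate together (correlations -0.08 to 0.14, over 0.1 in 1 of 14 pairs), so the numbers were not taken as pairs. With the replicate number as a block, the difference between the responses had 294 calls, and Scap was not called in non-foamy cells (-0.44, adjusted p = 0.0867). Levels per kilobase on the longest transcript were higher for each member, with Mbtps2 rising from 5.67 to 11.9 RPKM in WT non-foamy cells, where Srebf2 (19.6) and Insig2 (18.3) then lay above Stard4 (15.7). Scap, with the lowest level of the members, had the widest intervals.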
